A study of Homo sapiens with 27 samples.

Results

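This account covers 10 human genes of the MHC class II system, of 34584 genes with at least 1 transcript in the deposited tables. They are the class II transactivator CIITA, the regulatory factor X subunits RFX5, RFXANK and RFXAP, the invariant chain gene CD74, and the class II genes HLA-DRA, HLA-DRB1, HLA-DPA1, HLA-DQA1 and HLA-DMB. They were chosen by symbol and not by a limit on their measured levels, but earlier results of these data were known. Transcript values were summed to each symbol with the GENCODE 29 annotation.

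MHC class II molecules present peptides taken from endosomes to CD4+ T cells, and they are best known from dendritic cells, macrophages and B cells. RFX5, RFXANK and RFXAP form a complex that binds the X box of class II promoters together with CREB1 and NF-Y, and CIITA is then recruited as the co-activator that limits transcription. CD74 chaperones newly made class II dimers to the endosome, where proteases trim it and HLA-DM, of which HLA-DMB encodes the beta chain, exchanges the remaining fragment for peptide. Many tumour cells, melanoma among them, are known to transcribe these genes after interferon-gamma or without it.

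RNA was sequenced from 9 established cell lines with 3 libraries per line, described by the submitters as biological replicates, 27 libraries in all. No gene was altered, and no treatment is given in the labels. P-values measure the spread between these libraries. The lines were SK-Mel 24 (melanoma, labelled skin, in EMEM with 15% serum), SK-Mel 28 (melanoma, labelled skin), Caco2 (colorectal tumour, labelled colon), HepG2 (liver tumour, labelled liver) and U251 (glioma, labelled brain), the last 4 in EMEM with 10% serum. RT4 (bladder tumour, labelled kidney) and U2-OS (osteosarcoma, labelled bone) were in McCoy medium, and A549 (lung tumour, labelled lung) and BJ (skin fibroblasts, labelled epithelial) in DMEM, all with 10% serum. Each line was kept in 1 medium only, media differ between some of the lines, and a line stands for 1 donor. SK-Mel 24 and SK-Mel 28 shared EMEM but not the serum level, so between them line and serum cannot be told apart.

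Libraries held 15597117 to 32583547 estimated counts. HepG2 stood apart, with 33.3 to 71.6% of gene counts on mitochondrial genes, against 0.955 to 5.88% in the other lines, so its TPM (transcript abundance per length, as a share of the library) of every nuclear gene is lowered. Where a HepG2 level of the 10 genes matters below, it is given also after mitochondrial genes were left out. The markers of several lines did not follow the labels. SK-Mel 24 had SOX10 at 252 TPM and S100B at 7822 TPM but the pigment genes MLANA, PMEL and TYR at 1.08, 3.10 and 0.329 TPM. It also had all 5 glia markers at a mean of 1 TPM or more, with a summed level of 220 to 244 TPM, against 47.8 to 52.9 TPM in SK-Mel 28, where 2 of 5 reached 1 TPM. In the glioma line U251 their sum was 140 to 224 TPM. All 5 (GFAP, SOX2, FABP7, NES and OLIG2) were higher in SK-Mel 24 than in SK-Mel 28, beside 16.7% of all genes tested. Their median log2 fold change was 3.33, and their part in the results between these lines was not tested. RT4 had the uroplakin genes UPK1B, UPK2 and UPK3A at 129, 163 and 54.0 TPM. BJ had the collagen gene COL1A1 at 2877 TPM, and in U2-OS and A549 most markers of the labelled tissue were near 0. Cells of the immune system could also carry class II RNA. Of 15 leukocyte marker genes, 0 reached a mean of 1 TPM in SK-Mel 24, 4 in SK-Mel 28, 6 in Caco2, 2 in HepG2 and 1 in RT4, and TYROBP and AIF1 were at 0 in every SK-Mel 24 library. Their summed level was 2.37 to 4.03 TPM in SK-Mel 24 libraries and 64.9 to 76.8 TPM in SK-Mel 28 libraries. It was 30.4 to 39.9 TPM in Caco2, 208 to 987 TPM in HepG2 and 4.77 to 7.96 TPM in RT4, and the part of such cells in the class II values was not tested.

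Promoter windows of 4 of the 10 genes are shown for the letters of the elements that RFX and NF-Y are known to bind, and 8 of the 10 had a window in RefSeq (GRCh38.p14). HLA-DRA and CIITA are named only. Capitals mark matches to a stretch of the X box, ACNGATG, and to the Y box core bound by NF-Y, ATTGG. Each was searched on both strands, so that CATCNGT and CCAAT mark the opposite strand. Both patterns were chosen after the sequences were seen. Windows end at the base before the transcript start and run 5′ to 3′ on the gene's strand.

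HLA-DRB1 (chr6:32589849-32589978, minus strand): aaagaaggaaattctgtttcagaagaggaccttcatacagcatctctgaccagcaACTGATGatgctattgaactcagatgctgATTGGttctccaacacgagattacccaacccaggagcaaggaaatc

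HLA-DMB (chr6:32941029-32941158, minus strand): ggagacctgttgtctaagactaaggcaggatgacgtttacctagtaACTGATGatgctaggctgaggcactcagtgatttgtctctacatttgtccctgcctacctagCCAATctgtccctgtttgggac

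HLA-DQA1 (chr6:32637276-32637405, plus strand): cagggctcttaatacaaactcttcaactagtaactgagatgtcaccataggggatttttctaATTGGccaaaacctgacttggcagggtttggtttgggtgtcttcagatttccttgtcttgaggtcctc

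CD74 (chr5:150412911-150413160, minus strand): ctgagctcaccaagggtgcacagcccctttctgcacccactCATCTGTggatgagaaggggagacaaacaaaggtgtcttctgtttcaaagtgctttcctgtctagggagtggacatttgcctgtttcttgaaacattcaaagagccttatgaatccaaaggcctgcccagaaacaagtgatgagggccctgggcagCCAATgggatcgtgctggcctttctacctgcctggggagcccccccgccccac

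In HLA-DRB1 the X stretch lay 75 bases and the Y core 46 bases before the start, and in HLA-DMB 84 and 22 bases before it. HLA-DQA1 had the Y core 68 bases before its start and no match to the X stretch. Of 35116 windows of 130 bases, 3.07% held the X stretch, 21.5% the Y core and 0.632% both. CD74 had the Y core 53 bases before its start and the X stretch further upstream, both on the opposite strand. Of windows of 250 bases, 6.35% held the X stretch, 32.0% the Y core and 2.05% both. The X stretch was not found in the 130-base windows of CD74, RFX5, RFXANK, RFXAP or HLA-DPA1. The Y core was found in 1 of the 3 windows of RFX5. A match is a description of letters and not of binding, and a missing match does not show that an X box is absent.

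CIITA (chr16:10866222-10943021, plus strand, GRCh 38) was expressed in 3 of the 9 lines. The SK-Mel 24 libraries had 44.0, 32.6 and 30.5 TPM, those of SK-Mel 28 had 4.09, 2.67 and 2.73 TPM, and those of RT4 had 1.76, 3.61 and 2.15 TPM. The other 6 lines had means of 0.0795 TPM in HepG2 (0.195 TPM without mitochondrial genes) to 0.223 TPM in U251. The SK-Mel 24 libraries lay above all others without overlap, and those of SK-Mel 28 and RT4 overlapped. Over SK-Mel 28, CIITA was higher in SK-Mel 24 by 3.68 on the log2 scale (SE 0.32, edgeR quasi-likelihood test, Benjamini-Hochberg adjusted p = 4.95e-10). SK-Mel 28 did not pass against RT4 (log2 fold change of counts -0.59, adjusted p = 0.0896). That fold is not per length, with 606 counts in SK-Mel 28 and 764 in RT4, and its sign is opposite to that of the mean TPM, which was 3.16 in SK-Mel 28 and 2.51 in RT4. A pair of lines was called where the adjusted p was under 0.05 and the change at least 2-fold. All 18 pairs between these 3 lines and the other 6 were called, and 5 of the 15 pairs among the other 6, which rest on 41 to 94 counts per line. In all, CIITA differed in 25 of 36 pairs (69.4%), beside 43.3% of all gene-by-pair tests.

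CIITA has alternative first exons that are known to be used by different cell types. Transcripts from the first cluster of starts (10877198 to 10877331, 8 transcripts) held 68.2 ± 3.1% of CIITA TPM in SK-Mel 24, 59.0 ± 5.7% in SK-Mel 28 and 69.4 ± 6.9% in RT4 (SD, n = 3). A single transcript, CIITA-212, starts 1771 bases further on, at 10878969. It held 29.4 ± 0.913%, 35.6 ± 4.18% and 23.7 ± 13.2% in the same lines, and 32.6%, 41.2% and 26.1% of the protein-coding transcripts alone. By library, its share ran over 28.7 to 30.4% in SK-Mel 24, over 30.8 to 38.0% in SK-Mel 28 and over 8.48 to 31.6% in RT4. The melanoma lines did not overlap, and RT4 overlapped both. In the other 6 lines CIITA-212 was listed at 0 in every library, with 9 to 40 counts of CIITA per library in all. CIITA-212 is annotated with 626 bases and 177 residues, and no test was run on shares.

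The RFX subunits were expressed everywhere. RFX5 (chr1:151340640-151347357, minus strand), the DNA-binding subunit, had 59.3, 64.2 and 62.7 TPM in SK-Mel 24 and 33.9, 34.2 and 38.5 TPM in SK-Mel 28. Its means in the other lines lay between 8.96 TPM in HepG2 and 46.6 TPM in RT4. Without mitochondrial genes the HepG2 mean was 19.6 TPM, and the lowest line was Caco2 at 18.9 TPM. RFX5 differed in 4 of 36 pairs (11.1%, beside 43.3% of all gene-by-pair tests), which set SK-Mel 24 and RT4 above Caco2 and BJ. Without BJ replicate 1 this count was 6, and 7 with haplotype transcripts added for other genes. Between the melanoma lines the SK-Mel 24 libraries lay above those of SK-Mel 28 without overlap, with a log2 fold change of 0.63 (SE 0.19, edgeR adjusted p = 0.00652), under the 2-fold limit.

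RFXANK (chr19:19192229-19201869, plus strand), the ankyrin-repeat subunit, ranged over line means of 42.8 TPM in A549 to 89.0 TPM in RT4. It had 65.7, 56.8 and 80.2 TPM in SK-Mel 24 and 102, 70.6 and 87.3 TPM in SK-Mel 28, which overlap (log2 fold change -0.55, SE 0.21, adjusted p = 0.0308, under 2-fold). It differed in 7 of 36 pairs (19.4%, beside 43.3% of all gene-by-pair tests), of which 6 involved A549 or HepG2. HepG2 moved most with scaling, at 67.8 ± 38.8 TPM and 140 ± 27 TPM without mitochondrial genes. In HepG2, 85.0 ± 3.5% of RFXANK TPM was assigned to RFXANK-208, a short retained-intron transcript of 389 bases, against 44.9 ± 9.6% in RT4. The 260-residue coding transcript RFXANK-203 held 3.86 ± 1.01% in HepG2 and 21.5 ± 4.27% in RT4.

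RFXAP (chr13:36819224-36829104, plus strand), the smallest in level, ranged over line means of 1.07 TPM in HepG2 (2.46 TPM without mitochondrial genes) to 6.49 TPM in U251. It had 2.76, 5.21 and 3.52 TPM in SK-Mel 24 and 2.29, 3.29 and 2.65 TPM in SK-Mel 28, which overlap, with a log2 fold change of 0.41 (SE 0.32, adjusted p = 0.286). It differed in 9 of 36 pairs (25.0%, beside 43.3% of all gene-by-pair tests), in each of which Caco2, U251 or U2-OS was the higher line. Levels of the 3 subunits therefore spanned 2.08-fold (RFXANK), 6.08-fold (RFXAP) and 6.93-fold (RFX5) between the highest and lowest line means, and 3.16-, 3.15- and 3.37-fold without mitochondrial genes.

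CD74 (chr5:150401637-150412929, minus strand) split the lines into 5 with abundant RNA and 4 near 0. The SK-Mel 24 libraries had 3036, 2749 and 4010 TPM, those of SK-Mel 28 had 535, 431 and 537 TPM, and those of Caco2 had 466, 581 and 455 TPM. RT4 had 473, 493 and 127 TPM, and HepG2 averaged 169 ± 73.8 TPM (SD, n = 3). In A549, BJ, U2-OS and U251 no library passed 0.628 TPM, with 5 to 21 counts per line. SK-Mel 24 lay above every other line without overlap. All 20 pairs between the 5 lines and the 4 were called, the step at HepG2 over BJ being 10.27 on the log2 scale (SE 0.63, edgeR adjusted p = 7.74e-13).

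**Figure D1:**
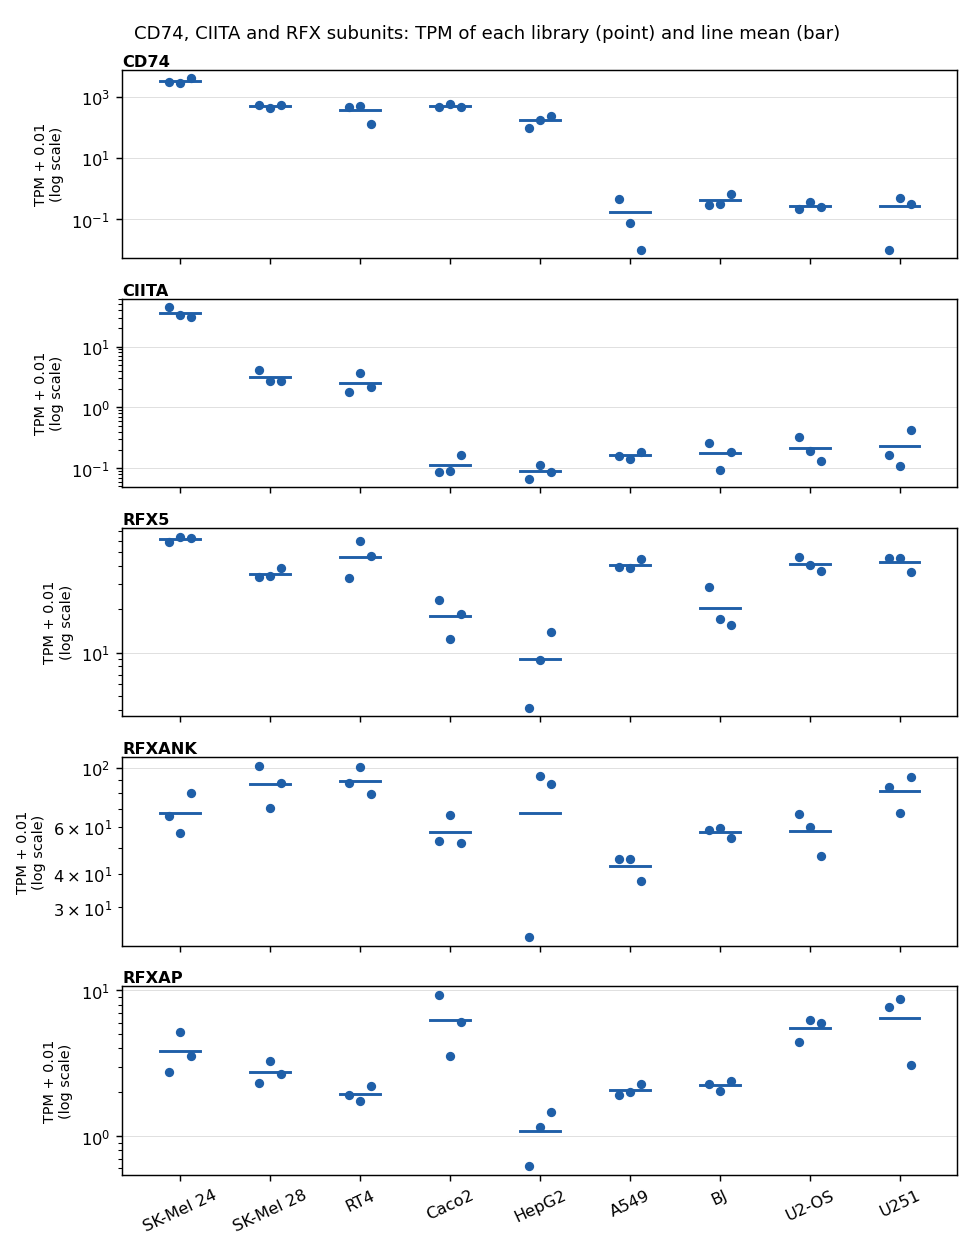
TPM + 0.01 of CD74, CIITA, RFX5, RFXANK and RFXAP by cell line on log axes, with a point for each of 3 libraries and a bar for the line mean. CD74 is high in 5 lines, CIITA in 3, and the RFX subunits in all 9, with the first HepG2 library low for each subunit.

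Within the 5 lines, 4 of 10 pairs were called, and each of the 4 set SK-Mel 24 above another line. SK-Mel 24 over SK-Mel 28 was 2.61 on the log2 scale (SE 0.41, adjusted p = 6.57e-06). SK-Mel 28, Caco2, RT4 and HepG2 did not differ in order beyond their spread (adjusted p = 0.764 for SK-Mel 28 and Caco2, 0.526 for Caco2 and RT4, 0.345 for RT4 and HepG2). The HepG2 mean was 387 ± 80 TPM without mitochondrial genes. CD74 differed in 25 of 36 pairs (69.4%), beside 43.3% of all gene-by-pair tests. Caco2 and HepG2 thus had CD74 RNA near the level of SK-Mel 28 and RT4, with CIITA at 0.104 TPM in Caco2 and 0.0795 TPM in HepG2 (0.195 TPM without mitochondrial genes), where SK-Mel 28 and RT4 had 3.16 and 2.51 TPM.

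CD74 transcripts also differed between these lines. The transcript of the common 232-residue form held 63.3 ± 2.4% of CD74 TPM in SK-Mel 24, 69.5 ± 1.2% in SK-Mel 28, 68.6 ± 5.9% in RT4 and 70.7 ± 6.6% in Caco2, but 18.6 ± 5.4% in HepG2. The transcript of a 160-residue form held 79.7 ± 5.6% in HepG2, against 17.7 to 24.8% in the other 4. Another transcript encodes the 296-residue form with a thyroglobulin-type domain, which is known to inhibit cysteine proteases. It held 17.0 ± 1.3% in SK-Mel 24, 11.9 ± 1.0% in SK-Mel 28, 7.33 ± 1.19% in RT4, 3.28 ± 0.89% in Caco2 and 0.999 ± 0.014% in HepG2 (SD, n = 3), with no overlap between SK-Mel 24 and SK-Mel 28. No test was run on shares.

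**Figure D2:**
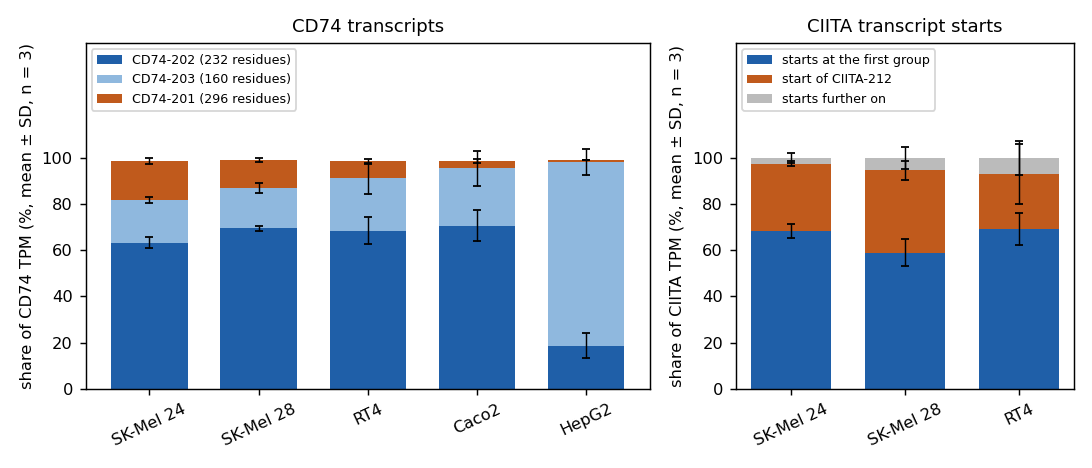
Left, the share of CD74 TPM held by the transcripts of the 232-, 160- and 296-residue forms in the 5 lines with CD74, and right, the share of CIITA TPM by transcript start in the 3 lines with CIITA (stacked means in percent, error bars are the SD of the segment they top, n = 3). The 160-residue form holds 79.7% in HepG2, and the 296-residue form has its highest share, 17.0%, in SK-Mel 24.

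The 5 HLA genes depend on how transcripts are counted. The authors' tables also list copies of these genes on the alternate haplotypes of the MHC region, which are not part of the primary assembly. Counts on primary transcripts alone therefore depend on how reads were divided between the copies. Whether that follows the alleles a line carries was not tested. In SK-Mel 24, 99.98% of HLA-DRA TPM, 66.9% of HLA-DRB1, 82.3% of HLA-DPA1, 0.219% of HLA-DQA1 and 66.4% of HLA-DMB lay on haplotype transcripts. In SK-Mel 28 the same shares were 99.99%, 100%, 83.2%, 98.8% and 100%. CD74, CIITA and the RFX genes have no such copies. HLA values below add haplotype transcripts unless primary is named, and near-identical genes such as HLA-DRB1 and its paralogs may still share reads.

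HLA-DRA (chr6:32439842-32445046, plus strand), the alpha chain of HLA-DR, had 1841, 2104 and 2217 TPM in SK-Mel 24, 158, 151 and 135 TPM in SK-Mel 28, and 10.1, 7.75 and 2.70 TPM in RT4. The other lines had means of at most 0.148 TPM, and HepG2 0.298 TPM without mitochondrial genes. The 3 lines did not overlap each other. SK-Mel 24 exceeded SK-Mel 28 by 3.72 on the log2 scale (SE 0.38, edgeR adjusted p = 1.59e-08), SK-Mel 28 exceeded RT4 by 4.12, and RT4 exceeded U2-OS, with 423 counts against 8, by 6.09. On primary transcripts HLA-DRA had at most 12 counts in a library and was not tested.

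HLA-DRB1 (chr6:32578769-32589848, minus strand), the main HLA-DR beta chain, had 539, 607 and 780 TPM in SK-Mel 24, 71.6, 67.2 and 75.1 TPM in SK-Mel 28, and 4.06, 2.75 and 0.694 TPM in RT4. No other line passed a mean of 0.0480 TPM. SK-Mel 24 exceeded SK-Mel 28 by 3.17 (SE 0.42, adjusted p = 6.09e-06). On primary transcripts SK-Mel 24 had 178, 200 and 259 TPM and SK-Mel 28 had 0 counts in each library. There SK-Mel 24 was at least 3546-fold higher against a floor of 3 counts over the group. In SK-Mel 28, 100% of HLA-DRB1 TPM lay on haplotype transcripts, so this bound does not measure the change in the whole gene.

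HLA-DPA1 (chr6:33064569-33080775, minus strand), the HLA-DP alpha chain, had 715, 720 and 841 TPM in SK-Mel 24 and 206, 204 and 240 TPM in SK-Mel 28. BJ was next with 5.42, 8.55 and 7.26 TPM, above U2-OS (log2 fold change 2.64, SE 0.37, adjusted p = 1.26e-06) and with no overlap above RT4, which had 1.92, 1.07 and 0.494 TPM. HLA-DPB1, the HLA-DP beta chain, stood at 11.7, 7.83 and 7.95 TPM in BJ. SK-Mel 24 exceeded SK-Mel 28 by 1.8 in HLA-DPA1 (SE 0.31, adjusted p = 2.07e-05), and by 1.84 on primary transcripts, the smallest change of the 5 HLA genes with haplotype transcripts.

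HLA-DQA1 (chr6:32628179-32647062, plus strand), the HLA-DQ alpha chain, had 489, 628 and 869 TPM in SK-Mel 24 and 21.1, 21.1 and 25.0 TPM in SK-Mel 28. Its change was 4.62 (SE 0.41, adjusted p = 5.47e-10), and 8.84 on primary transcripts, where SK-Mel 28 held 61 counts. In SK-Mel 28, 98.8% of HLA-DQA1 TPM lay on haplotype transcripts, so the primary value does not measure the change in the whole gene. The remaining lines had means of 0.693 to 2.50 TPM, and HepG2, at 1.45 TPM, had 4.47 ± 4.14 TPM without mitochondrial genes. In counts, which are not per length, the order differed. SK-Mel 28 held 1155 counts and HepG2 held 1254, and SK-Mel 28 was called below HepG2, where the log2 fold change of SK-Mel 28 over HepG2 was -1.57 (SE 0.36, edgeR adjusted p = 0.00068). HepG2 was also called above U2-OS, by 2.06 (SE 0.37, adjusted p = 3.69e-05). Log2 CPM of HLA-DQA1 was 3.77, 3.83 and 3.90 in the SK-Mel 28 libraries and 6.42, 4.55 and 4.18 in those of HepG2, without overlap. SK-Mel 28 averaged 22.4 TPM and U2-OS 2.50 TPM, while their summed counts were 1155 in SK-Mel 28 and 999 in U2-OS (log2 fold change of counts 0.49, adjusted p = 0.247).

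HLA-DMB (chr6:32934629-32941070, minus strand) had 84.6, 95.5 and 98.2 TPM in SK-Mel 24, 22.3, 22.1 and 20.8 TPM in SK-Mel 28, and 3.27, 3.98 and 0.724 TPM in RT4. A549, with CIITA at 0.152 TPM and CD74 at 0.164 TPM, had 17.1, 41.4 and 83.4 TPM, all on haplotype transcripts. Its partner HLA-DMA stood at 6.37, 14.8 and 28.1 TPM in the same A549 libraries, so the same library was lowest and the same highest in both genes. SK-Mel 24 exceeded A549 in HLA-DMB by 1.04 (SE 0.42, adjusted p = 0.0401), and SK-Mel 28 by 2.10 (SE 0.44, adjusted p = 0.000273). A549 exceeded SK-Mel 28 by 1.06 (adjusted p = 0.0381), with libraries that overlap. On primary transcripts A549 and SK-Mel 28 had 0 counts, and SK-Mel 24 was at least 622-fold higher than SK-Mel 28. In SK-Mel 28, 100% of HLA-DMB TPM lay on haplotype transcripts, so this bound does not measure the change in the whole gene.

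**Figure D3:**
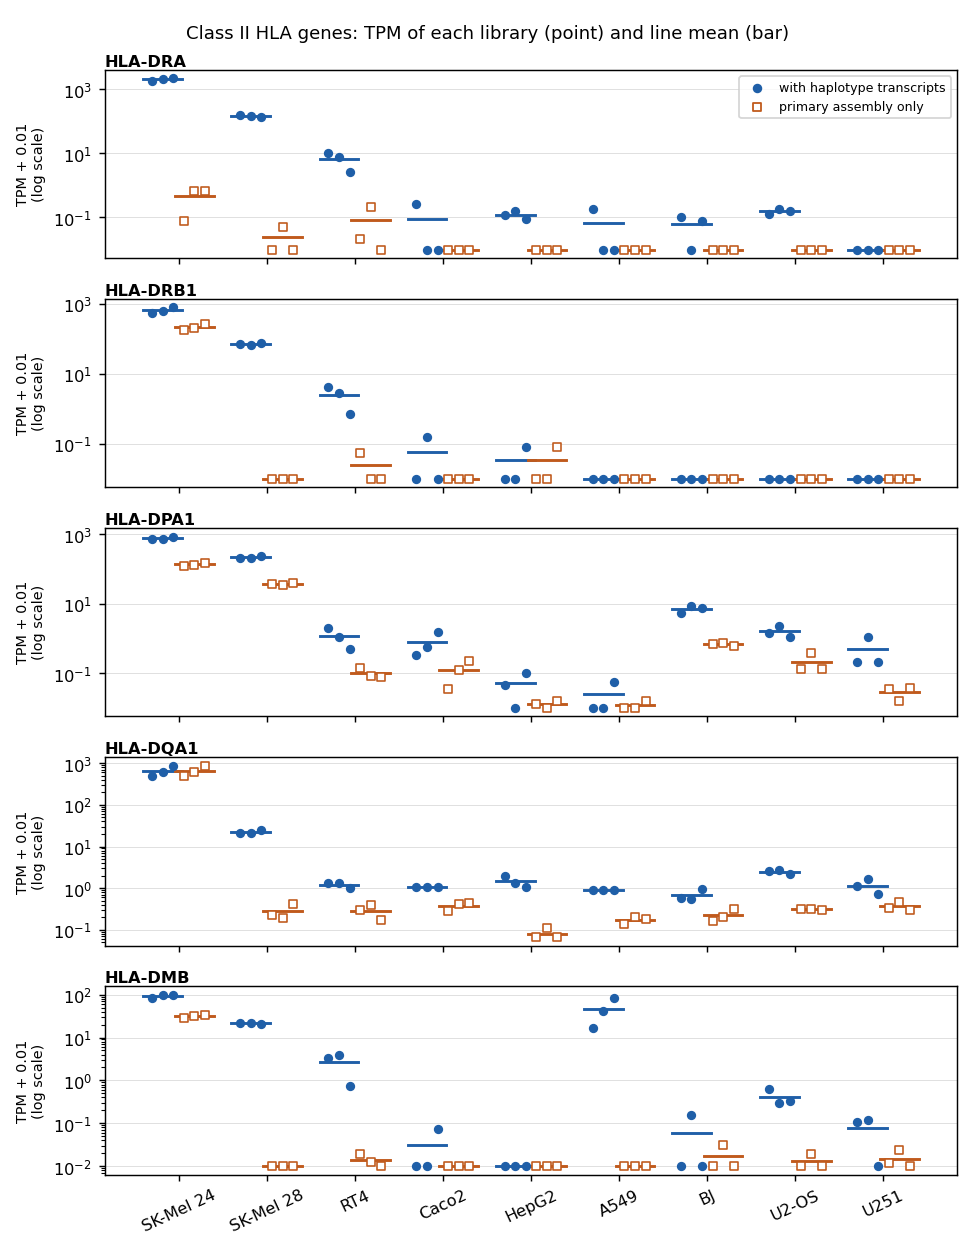
TPM + 0.01 of the 5 HLA genes by cell line on log axes, with haplotype transcripts (filled circles) and on primary transcripts alone (open squares), a point for each of 3 libraries and a bar for the mean. HLA-DRA is at 2054 TPM with haplotype transcripts and 0.457 TPM without in SK-Mel 24, and HLA-DMB in A549 is seen only with them.

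In RT4 the third library was the lowest of its line for CD74 and for each of the 5 HLA genes, in TPM, but not for CIITA, where it lay between the others. Over the 9 lines each of the 10 genes passed the F test with haplotype transcripts and 9 of 9 tested genes without, beside 98.3% of all genes tested in both countings, so this count says nothing particular about them. HLA-DRA, HLA-DRB1, HLA-DPA1, HLA-DQA1 and HLA-DMB differed in 24, 21, 30, 24 and 28 of 36 pairs, beside 43.3% of all tests. On primary transcripts HLA-DRB1 differed in 8 (22.2%), HLA-DPA1 in 28 (77.8%), HLA-DQA1 in 11 (30.6%) and HLA-DMB in 8 (22.2%). Beside them stand 43.3% of all tests, so only HLA-DPA1 of these HLA genes lay above that share there. At 36 pairs per gene, the 10 genes gave 197 called pairs with haplotype transcripts. On primary transcripts the 9 tested genes gave 125. The share over all gene-by-pair tests was 43.3% in both countings.

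Between the melanoma lines, 7 of the 10 genes were higher in SK-Mel 24 and 0 lower, beside 16.7% of all genes higher and 15.5% lower. On primary transcripts 6 of 9 tested were higher and 0 lower, beside 16.7% and 15.6%. The 3 genes not called were the RFX subunits. The median log2 fold change of the 10 genes was 2.35, and that of all genes 0. In bulk RNA, more cells with a transcript and more transcript per cell cannot be told apart. With the P number of the sample titles as a block, the same 7 genes were counted higher.

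**Figure D4:**
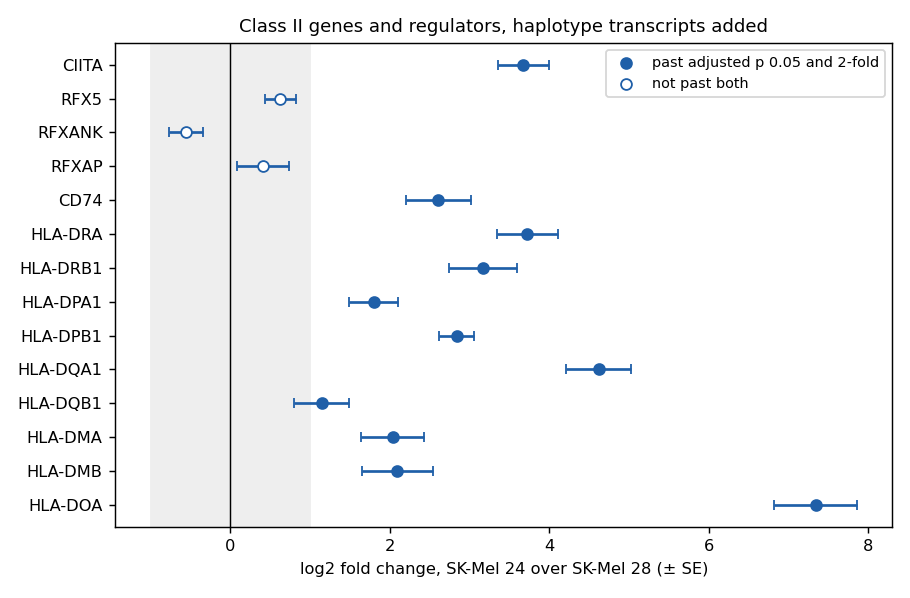
Log2 fold change of SK-Mel 24 over SK-Mel 28 with its SE for the 10 genes and 4 further class II genes, haplotype transcripts added, filled where past the adjusted p of 0.05 and 2-fold (grey band, under 2-fold). CIITA stands at 3.67 and CD74 at 2.61, and the RFX subunits lie between -0.55 and 0.63.

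Of 8 other class II genes, 5 could be tested and 4 were higher in SK-Mel 24, beside 16.7% of all genes. HLA-DPB1 had 272 ± 32.4 TPM in SK-Mel 24 and 35.9 ± 6.51 TPM in SK-Mel 28 (SD, n = 3 each, log2 fold change 2.84). HLA-DMA, the HLA-DM alpha chain, had 411 ± 18 TPM in SK-Mel 24 and 93.8 ± 2.4 TPM in SK-Mel 28 (2.03). HLA-DQB1, the HLA-DQ beta chain, had 192 ± 36 TPM in SK-Mel 24 and 75.2 ± 13.4 TPM in SK-Mel 28 (1.15). HLA-DOA, part of HLA-DO, which restrains HLA-DM, had 42.2 ± 2.3 TPM in SK-Mel 24 and 0.293 ± 0.189 TPM in SK-Mel 28 (7.34, edgeR adjusted p = 1.13e-11). The fifth, HLA-DOB, was at 0.899 and 0.946 TPM and did not pass. HLA-DMA was also at 60.4, 51.3 and 23.6 TPM in RT4, well above the other class II genes there. HLA-DRB5, HLA-DQA2 and HLA-DQB2 stayed under 1 TPM in every line. On primary transcripts 3 of 3 tested were higher, HLA-DQB1 by at least 4070-fold and HLA-DPB1 by at least 710-fold against 0 counts in SK-Mel 28. In SK-Mel 28, 100% of the TPM of both genes lay on haplotype transcripts. These 2 bounds therefore depend on which copy took the reads and do not measure the change in the whole gene.

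Of 8 factors that share class II promoters with RFX, 0 were higher in SK-Mel 24 and 1 was lower, beside 16.7% of all genes higher and 15.5% lower, so these counts are near the background. The gene that was lower was the acetyltransferase gene EP300, with 14.7, 15.5 and 16.2 TPM in SK-Mel 24 and 40.2, 45.2 and 35.4 TPM in SK-Mel 28 (log2 fold change -1.43, adjusted p = 7.68e-06). Log2 fold changes of the NF-Y subunit genes NFYA, NFYB and NFYC were 0.37, 0.55 and -0.85. CREB1, which binds the X2 element, was at -0.06, and the coactivator genes CREBBP, KAT2B and SMARCA4 at 0.08, 0.55 and -0.32. SMARCA4, a chromatin remodeller ATPase, was at 2.78 TPM in A549 and 88.8 TPM in RT4. Of 6 other RFX family genes tested, 0 were higher and RFX3 was lower (-1.37).

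On the interferon-gamma route, which is known to induce CIITA, 1 of 11 tested genes was higher and 3 lower. The shares over all genes were 16.7% higher and 15.5% lower. IRF1, a transcription factor of the induced CIITA promoter, had 24.6, 27.8 and 42.0 TPM in SK-Mel 24 and 5.37, 5.74 and 6.36 TPM in SK-Mel 28 (log2 fold change 2.39, SE 0.23, adjusted p = 2.36e-09). The IRF1 libraries of the 2 lines did not overlap. JAK2, the receptor kinase, had 1.44 ± 0.26 TPM in SK-Mel 24 and 11.5 ± 1.2 TPM in SK-Mel 28 (-2.94). PTPN2, a phosphatase that acts on JAK kinases, had 8.34 ± 2.38 TPM in SK-Mel 24 and 21.5 ± 0.659 TPM in SK-Mel 28 (-1.49). The log2 fold changes of the 7 genes not called were 0.42 for IFNGR1, -0.59 for IFNGR2, -0.46 for JAK1, 0.48 for IRF2, 0.28 for USF1, -0.28 for USF2 and 1.67 for SOCS1. IFNG itself was at 0 in every library of both lines. The list's median was -0.28, and without U2-OS replicate 3 the count of higher genes was 2.

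Among 9 genes of endosomal processing, 1 was higher and 3 lower, beside 16.7% of all genes higher and 15.5% lower. The cysteine protease genes CTSH and CTSB fell by 3.07 and 1.98 on the log2 scale, and CTSV by 1.20. CTSH stood at 54.5 ± 4.1 TPM in SK-Mel 24 and 436 ± 32 TPM in SK-Mel 28. The aspartic protease gene CTSD was higher (1.11), a call lost without SK-Mel 24 replicate 1 or SK-Mel 28 replicate 2. CTSS, known for the last cut of the invariant chain, had 11.7, 15.7 and 102 TPM in SK-Mel 24 and 29.8, 24.6 and 34.0 TPM in SK-Mel 28. The third SK-Mel 24 library alone set it high, and CTSS did not pass (log2 fold change 0.42, adjusted p = 0.525).

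Of 3 genes of class II turnover, 2 were higher, CD83 (1.37), which limits ubiquitination of class II, and the ubiquitin ligase gene MARCH1 (1.19). The count was 1 without SK-Mel 24 replicate 2, without SK-Mel 28 replicate 1 or 3, or with transcript length as an offset. CD74 is also a receptor for the cytokine MIF. Of 5 tested genes of that role, CD44 was higher, with 1069 ± 83 TPM in SK-Mel 24 and 467 ± 12 TPM in SK-Mel 28 (1.31), as were CXCR4 and ACKR3, both under 0.8 TPM in every library of the 2 lines. MIF and its relative DDT were lower (-1.24 and -1.93). Only 1 higher and 1 lower gene of that role remained counted in a fit of the 6 melanoma libraries, with or without the P number as a block. For the turnover and the receptor genes alike, the shares over all genes were 16.7% higher and 15.5% lower.

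In the MHC class I route, which shares a CIITA relative, NLRC5, as its activator, 7 of 11 genes were higher in SK-Mel 24 and 0 lower, led by HLA-B (3.32), TAPBP (1.66) and PSMB9 (1.37). Over all genes 16.7% were higher and 15.5% lower. On primary transcripts the count was 4 higher and 3 lower, beside 16.7% and 15.6% of all genes. NLRC5 itself was at 3.48 ± 0.83 TPM in SK-Mel 24 and 2.57 ± 0.70 TPM in SK-Mel 28 and did not pass (0.42). Of 3 costimulation genes tested, 0 were higher and 2 were lower, beside 16.7% and 15.5% of all genes. CD40 had 1.96 ± 0.731 TPM in SK-Mel 24 and 11.8 ± 0.453 TPM in SK-Mel 28, and CD274 had 0.279 ± 0.105 TPM in SK-Mel 24 and 6.18 ± 0.268 TPM in SK-Mel 28. CD80 and CD86 stayed under 0.4 TPM in both. Of 8 leukocyte markers tested, 1 was higher (ITGAM) and 3 were lower (FCER1G, ITGAX and LYZ, with log2 fold changes of -9.05, -6.09 and -4.55). The same all-gene shares, 16.7% and 15.5%, stand beside these counts.

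**Figure D5:**
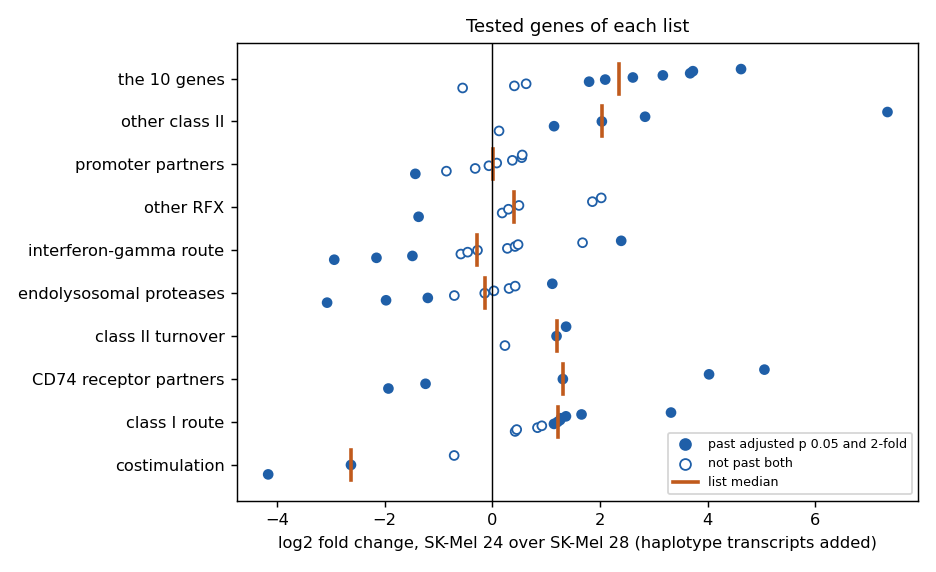
Log2 fold change of SK-Mel 24 over SK-Mel 28 for each tested gene of 10 lists, filled where past the adjusted p of 0.05 and 2-fold, with the list median as a bar (haplotype transcripts added). The medians of the 10 genes, other class II genes and the class I route are 2.35, 2.03 and 1.21, and those of the promoter partners and the interferon-gamma route 0.01 and -0.28.

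Across the 9 line means of log2 CPM (scaled by TMM), CIITA correlated with HLA-DRA at 0.956, HLA-DRB1 at 0.941, HLA-DQA1 at 0.762, HLA-DPA1 at 0.745, HLA-DMB at 0.721 and CD74 at 0.706. The same measure was 0.680 with RFX5, 0.227 with RFXANK and -0.325 with RFXAP. These describe 9 points that share libraries and of which 6 lie near 0 for CIITA. Among 13094 other protein-coding genes, those most like CIITA were MINDY1 (0.92), ITPK1 (0.92), ACSL3 (0.91), TXK (0.90) and SPATA13 (0.90). Those most like CD74 were RNF128 (0.96), ERBB3 (0.90), TNFAIP3 (0.90), ZMYND8 (0.90) and BST2 (0.90). For HLA-DRA they were HLA-DQB1 (0.96), SPATA13 (0.93), TMEM229B (0.92), FAM178B (0.92) and RXRG (0.91). RFX5 was most like SLC27A4, TGFA, FRMD3, TLR3 and AVL9 (0.95 to 0.85). RFXANK was most like NDUFB7, YJU2, GATAD2A, MAP1S and MVB12A (0.92 to 0.90), and RFXAP most like GRK6, PGBD5, HDAC2, CNTNAP2 and GOT1 (0.94 to 0.89). Over the 27 single libraries these likenesses were lower. They were 0.61 to 0.87 for the genes listed with RFX5, 0.73 to 0.87 with RFXANK and 0.42 to 0.77 with RFXAP. For CIITA they were 0.86 to 0.89, for CD74 0.88 to 0.94 and for HLA-DRA 0.89 to 0.96. GRK6 was the lowest, at 0.42.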

How the data were processed

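Poly-A RNA of 27 libraries was sequenced with a strand-specific kit, per the labels' protocols. Tools were kallisto 0.43.1 and CASAVA 1.8 with GRCh 38, per the submitters' processing notes. The index annotation is not given in the sources used here. Per the file headers, the deposited tables give an estimated count, a TPM and an effective length per transcript. TPM is a share of all transcripts, taken per length, so that abundant mitochondrial RNA lowers every other gene.

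Of 176241 transcripts, 159887 matched GENCODE 29 on the primary assembly. A further 13368 were named only by GENCODE's HGNC metadata, and the second counting adds these to their gene. Each gene's estimated count was the sum over its transcripts, made whole by rounding. Gene counts were tested with edgeR 4.0.16 (quasi-likelihood, TMM, filterByExpr) in R 4.3.3 with limma 3.58.1, and DESeq2 1.42.0 was an alternative. All 27 libraries entered 1 fit of 17220 genes (17288 with haplotype transcripts), with biological coefficients of variation of 24.2% and 24.0%. P-values were adjusted by Benjamini-Hochberg over all genes, and over all 36 pairs of lines. A call needed an adjusted p under 0.05 and a 2-fold change. The SE of an edgeR log2 fold change is its absolute value divided by the square root of the quasi-likelihood F. It was derived from the test and not estimated separately. The script was tested on simulated data. Tables were made in Python 3.11.15 with pandas 2.3.3 and numpy 2.4.6.

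Groups follow the label that names the cell line. The total of 26090811 counts of the median library limits counting error, not the spread of cultures. Replicates of a line differed beyond sampling noise in all 27 pairs (lowest median chi-square ratio 5.96). Titles carry a number after P, whose meaning is not stated. Of the melanoma libraries, same-numbered ones had correlated deviations (0.285 to 0.649, others -0.499 to 0.217), so the numbers were taken to pair them in a blocked alternative. Coordinates are GENCODE 29 on GRCh 38, and promoter sequences come from RefSeq (GRCh38.p14).

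The 10 genes and the 18 other lists were chosen with earlier results of these data known. All 10 genes are named. Some genes of the other lists enter their counts but are not reported here by name. Values are given for other class II genes, promoter partners and interferon-gamma route genes of at least 1 TPM in some line, and for the 3 called genes with the largest change in other lists. CTSS, NLRC5, CTSH, the identity markers and further unchanged genes given with values were named after their values were seen. The 5 most alike genes were taken by Pearson correlation among protein-coding genes of at least 5 TPM in some line. Alternatives were DESeq2, RLE factors, no filter, a transcript length offset, no mitochondrial genes, haplotype transcripts, adjustment within a pair, only the 6 melanoma libraries, the block, and each library left out. For the haplotype counting these were added after seeing the data.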

Additional observations from a re-analysis of the deposited data

Results flagged for a closer look

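HLA-DRB3 and HLA-DRB4 are second HLA-DR beta chain genes that some haplotypes carry and that have no copy on the primary assembly, so the comparisons above do not use them. Their transcripts were named only by GENCODE's HGNC metadata. HLA-DRB3 averaged 11.6 TPM in SK-Mel 24 (14.5, 2.56 and 17.8 TPM, with 46 to 220 counts per library), and all SK-Mel 28 libraries were at 0. HLA-DRB4 averaged 69.5 TPM in SK-Mel 28 (67.6, 62.3 and 78.6 TPM, with 894 to 1403 counts per library), and all SK-Mel 24 libraries were at 0. Signal in transcripts outside the main counting put both here. Each was found in 1 of the melanoma lines, and in the other 7 lines neither passed a library value of 0.548 TPM. Near-identical beta chain genes can share reads, and their part in these values was not tested.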

How the results depend on the processing

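The number of called pairs moved with 1 choice, from 125 on primary transcripts to 197 with haplotype transcripts, since more HLA genes then carry counts. Over all gene-by-pair tests the called share was 43.3% in both countings. The counts of genes called over lines, of called pairs and of genes higher in SK-Mel 24 stayed within 1.5 times under the other settings in both countings. Leaving out each library gave 125 to 134 called pairs on primary transcripts and 192 to 207 with haplotype transcripts. It gave 9 to 10 and 10 genes called over lines, and 6 to 7 and 7 genes higher in SK-Mel 24. All 151 log2 fold changes under other settings and all 513 with a library left out kept their direction and call. With the replicate block by P number 6 genes on primary and 7 with haplotype transcripts were higher, and the block changed no call among the 10 genes. The HLA-DRA pair count of 0 on primary transcripts became 7 with no filter. List counts that moved are given with their list. The all-gene median log2 fold change moved by at most 0.039 under any setting. Depth limits CIITA and HLA values under about 1 TPM, where lines hold few counts.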

Other observations

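Several values stood out beside the comparisons. SMARCA4 was at 2.78 TPM in A549, the lowest of the 9 lines, and CTSS was at 62.6 TPM there, the highest. ACKR3 averaged 205 TPM in RT4 and was at most 0.770 TPM in any melanoma library. LYZ was at 571 TPM in HepG2, and at 1189 TPM without mitochondrial genes, where CIITA was at 0.195 TPM.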
